A study of Mus musculus with 34 samples.

Results

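Myc, Mycn and Mycl are the 3 members of the mouse MYC family. They were taken by gene symbol from every deposited gene table, which gave 3 of 37145 genes in the culture tables and 3 of 46785 genes in the embryo tables. The culture tables list Mycl under its older symbol Mycl1, with the same Ensembl identifier, and it was matched by that identifier. MYC proteins are basic helix-loop-helix transcription factors that bind DNA as dimers with MAX, most strongly at the E-box CACGTG, and raise genes of ribosome production, nucleotide and energy metabolism and cell growth. Members of the MXD family and MNT compete for MAX and act in the opposite direction. In the early mouse embryo Myc and Mycn set the growth of pluripotent and epiblast cells, cells with less MYC are eliminated by neighbours with more, and loss of either Myc or Mycn is lethal at midgestation. Mycl is known from studies of dendritic cells and small cell lung cancer, and mice without it are viable.

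The study asked what the long noncoding RNA Evx1as does in embryonic patterning. The cultures were mouse embryonic stem cells of strain 129S1/SVImJ, on day 4 after withdrawal of leukemia inhibitory factor (LIF), the cytokine that keeps such cells undifferentiated. The groups were 3 cultures of the line labelled 4x polyA KI, read here as a knock-in (KI), and 3 cultures of the wild-type line CJ9. The labels give 1 line per genotype, so the spread between cultures measures only cultures of that line. The embryo samples came from the C57/B6 strain on embryonic day 7. Frozen sections were cut, small regions were excised by laser, and their RNA was amplified by Geo-seq, which is made for such small inputs. They comprised 5 streak sections and 5 mesoderm sections labelled Evx1as-/-, and 6 streak sections and 3 mesoderm sections labelled Evx1as+/-. Both embryo genotypes therefore carry at least 1 altered allele, and there were no wild-type embryos. Each section has a layer number between 1 and 11, whose direction along the embryo the labels do not give. A single piece of anterior epiblast (layers 4 to 6) was taken from each genotype. Region labels conflicted in 3 further sections, which entered alternative fits only. No section is tied to an embryo in the labels, so sections of a genotype may share 1, and p-values over sections are then too small. A difference by genotype then cannot be told apart from a difference between single embryos.

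Values are FPKM, a fragment count divided by transcript length and by the mapped fragments of the library, and can be compared between genes. The tables hold no read counts, so sequencing depth is unknown. Between 12758 and 13073 genes reached 1 FPKM in cultures. In sections 8420 to 10565 did so in Evx1as-/- libraries and 6806 to 10959 in Evx1as+/- libraries. Evx1as itself was at 0.0674 to 0.137 FPKM in KI cultures and 3.94 to 5.99 FPKM in wild-type cultures. It was listed at 0 in 10 of 12 Evx1as-/- sections and in 4 of 12 Evx1as+/- sections, and the highest values were 0.159 and 4.57 FPKM. The summed level of 8 primitive streak markers was 245 to 455 FPKM in Evx1as-/- streak sections and 276 to 470 FPKM in Evx1as+/- streak sections. The mesoderm sections carried less of it, 68.5 to 87.9 FPKM in Evx1as-/- and 13.7 to 42.0 FPKM in Evx1as+/- sections.

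Myc lies on chromosome 15, Mycn on chromosome 12 and Mycl on chromosome 4. In the embryo tables, whose positions are those of mm10, the gene spans are chr15:61985341-61990374, chr12:12936096-12941914 and chr4:122995944-123002485. No other gene of the GENCODE vM21 annotation overlaps any of them, so none shares exons with an antisense or neighbouring gene there. The promoter table from RefSeq (build GRCm38.p6) holds Mycn and Mycl. The 250 bases before their RefSeq start are shown because these genes gave the largest KI difference and the largest genotype difference of the family. Capitals mark TTTGGCGC, a sequence recognised by E2F factors, and TATAAA, the TATA-box sequence, each searched on both strands. RefSeq starts differ from the spans above: the Mycn window overlaps the end of the printed span, and the Mycl window lies inside the longer GENCODE vM21 gene, which starts at chr4:122995652.
Mycn: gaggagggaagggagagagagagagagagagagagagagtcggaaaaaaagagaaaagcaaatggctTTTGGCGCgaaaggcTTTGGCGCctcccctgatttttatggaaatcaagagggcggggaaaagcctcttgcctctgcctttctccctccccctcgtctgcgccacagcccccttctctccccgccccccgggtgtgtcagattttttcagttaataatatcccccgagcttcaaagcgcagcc
Mycl: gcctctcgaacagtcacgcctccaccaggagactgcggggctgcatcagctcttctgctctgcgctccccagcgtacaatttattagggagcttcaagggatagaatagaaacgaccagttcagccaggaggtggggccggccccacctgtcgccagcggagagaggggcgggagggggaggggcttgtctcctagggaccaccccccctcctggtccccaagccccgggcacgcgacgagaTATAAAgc
The Mycn sequence (chr12:12941837-12942086, minus strand) holds TTTGGCGC 2 times, starting 183 and 168 bases before the start. Of 27025 genes with a promoter in the table, 0.485% have that sequence in the same window. The Mycl sequence (chr4:122995681-122995930, plus strand) holds TATAAA 8 bases before the start, and 14.3% of all genes have that motif. Neither window holds CACGTG, which 6.86% of all genes have. These matches describe the letters of the windows only.

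In the cultures Myc and Mycn were higher in the KI line and Mycl was level. Myc stood at 119, 122 and 160.0 FPKM in KI cultures, against 70.6, 68.6 and 73.0 FPKM in wild-type cultures. Every KI culture was above every wild-type culture, and 1 KI culture lay well above the other two. The means were 134 ± 22.9 FPKM in KI and 70.7 ± 2.18 FPKM in wild type (SD, n = 3 each), a log2 change of 0.90 (SE 0.14, fold 1.86, limma adjusted p = 0.00282 over all genes). Fold changes and tests are on the log2(FPKM + 1) scale throughout.

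Mycn, the member known for its role in the epiblast and in neural progenitors, stood at 91.2, 89.6 and 106 FPKM in KI cultures, against 37.3, 44.1 and 53.7 FPKM in wild-type cultures. Here too the groups were apart, with the lowest KI culture above the highest wild-type culture. Mean levels were 95.7 ± 9.29 FPKM in KI and 45.0 ± 8.25 FPKM in wild type (SD, n = 3 each), a log2 change of 1.08 (SE 0.16, limma adjusted p = 0.00215). Mycl stood at 41.4, 45.1 and 34.4 FPKM in KI cultures, against 34.1, 37.3 and 48.2 FPKM in wild-type cultures. These values overlapped, and the log2 change was 0.02 with a 95% interval of -0.37 to 0.41 (limma adjusted p = 0.932). Of all 13133 genes tested, 32.4% passed the threshold of 0.05 and 16.2% passed it as higher in KI, so a call is common in this comparison. Every KI culture was above every wild-type culture for 24.4% of all genes.

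**Figure D1:**
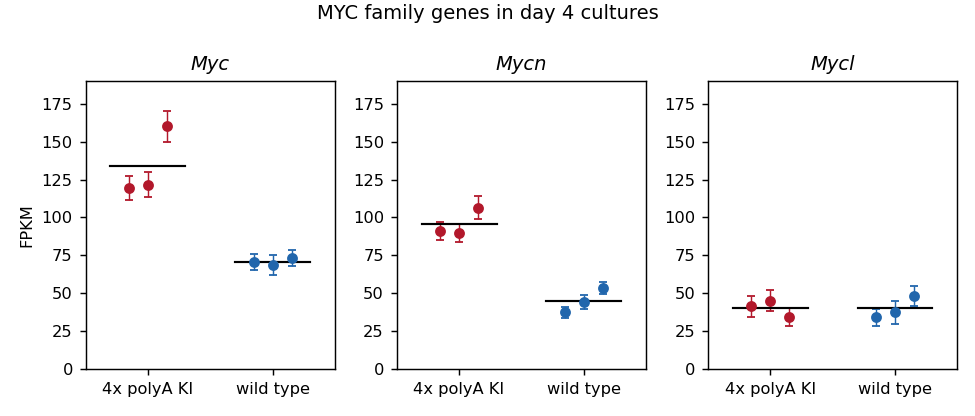
FPKM of Myc, Mycn and Mycl in day 4 cultures, with 4x polyA KI on the left and wild type on the right; points are cultures, bars the authors' interval for each value, and black lines the means of 3 cultures. KI cultures lie above wild-type cultures for Myc and Mycn and among them for Mycl.

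Within a culture the family kept 1 order. Myc was above Mycn and Mycn above Mycl in 3 of 3 KI cultures and in 3 of 3 wild-type cultures. In KI cultures the ranges of the 3 genes did not overlap. In wild-type cultures Myc stood above both others, while the range of Mycn, 37.3 to 53.7 FPKM, overlapped that of Mycl, 34.1 to 48.2 FPKM. The summed family level was 270 ± 27.1 FPKM in KI and 156 ± 17.2 FPKM in wild type (SD, n = 3 each). Mycl made up 11.4 to 17.6% of that sum in KI cultures and 24.0 to 27.6% in wild-type cultures. The log2 ratio of Mycn to Myc averaged -0.47 in KI and -0.67 in wild type, and the difference of 0.19 was within the spread of cultures (exact permutation test, two-sided, p = 0.2, where the smallest possible is 0.1). The same cultures differed in cell-state markers. The summed level of 8 epiblast markers was 1502 to 1741 FPKM in KI and 697 to 822 FPKM in wild type. The summed level of 8 primitive streak markers was 147 to 185 FPKM in KI and 379 to 541 FPKM in wild type. The part of these differences in the MYC levels was not tested.

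The partners, cofactors and regulators of MYC were set beside the 32.4% of all genes that passed the test in either direction in cultures. MAX, the obligate partner, was at 47.9 ± 11.1 FPKM in KI and 48.8 ± 8.46 FPKM in wild type (SD, n = 3 each). Of 9 measured genes of the MAX network 0 passed the threshold in limma, and 1 had an unadjusted p under 0.05. Among 10 cofactors Ruvbl2, a helicase subunit of chromatin remodellers, was higher (log2 change 0.72), and Trrap, a scaffold of acetyltransferase complexes, was lower (log2 change -0.72), and the other 8 did not pass. Of 11 genes that set the stability of MYC proteins, 3 were higher in KI and 1 lower, a share near the 32.4% of all genes. Pim1, a kinase that stabilises MYC, averaged 123 ± 15.8 FPKM in KI and 62.5 ± 8.86 FPKM in wild type (SD, n = 3 each), a log2 change of 0.97. Usp28, a deubiquitinase that protects MYC from degradation, averaged 5.29 ± 1.14 FPKM in KI and 1.66 ± 0.35 FPKM in wild type (SD, n = 3 each), a log2 change of 1.23. Aurka, a kinase that shields MYCN from degradation, had a log2 change of 0.56. Gsk3b, a kinase whose phosphorylation marks MYC for degradation, averaged 6.63 ± 0.31 FPKM in KI and 11.1 ± 0.48 FPKM in wild type (SD, n = 3 each), a log2 change of -0.67.

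Among ribosome biogenesis genes 11 of 20 passed as higher in KI cultures and 0 as lower, against 16.2% of all genes higher, and their median log2 change was 0.56, against 0.02 over all genes. Fbl, the methyltransferase of ribosomal RNA in the nucleolus, averaged 59.1 ± 20.6 FPKM in KI and 24.7 ± 1.87 FPKM in wild type (SD, n = 3 each), a log2 change of 1.16. Bop1, needed for large subunit assembly, averaged 44.1 ± 4.83 FPKM in KI and 19.6 ± 1.88 FPKM in wild type (SD, n = 3 each), a log2 change of 1.13. Mybbp1a and Nolc1, both nucleolar proteins, had log2 changes of 0.86 and 0.84. The metabolism and growth list had 8 of 21 genes higher and 1 lower, with a median log2 change of 0.47. Ldha, which makes lactate in glycolysis, averaged 639 ± 92.5 FPKM in KI and 275 ± 64.1 FPKM in wild type (SD, n = 3 each), a log2 change of 1.23. Srm, which makes the polyamine spermidine, averaged 186 ± 7.00 FPKM in KI and 82.9 ± 13.0 FPKM in wild type (SD, n = 3 each), a log2 change of 1.17. Eif4e, the cap-binding factor of translation, had a log2 change of 0.82. Ccnd2, a cyclin of G1 phase, was the gene that was lower (log2 change -0.81), a call lost in 7 of 11 alternatives. Both counts depended on single settings: leaving out 1 culture at a time gave 7 to 11 higher genes in the ribosome list and 4 to 7 in the metabolism list.

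Genes that MYC is known to repress did not move in 1 direction. Of 9, 4 were lower in KI and 2 higher, where 32.4% of all genes passed in either direction and 16.2% as higher. Their median log2 change was -0.11, against 0.02 over all genes. Gadd45a, a DNA damage response gene, averaged 14.7 ± 1.64 FPKM in KI and 31.5 ± 3.56 FPKM in wild type (SD, n = 3 each), a log2 change of -1.05. Cdkn1a, the cell cycle inhibitor p21, averaged 50.5 ± 18.9 FPKM in KI and 97.7 ± 3.57 FPKM in wild type (SD, n = 3 each), a log2 change of -1.0. Ndrg1 and Ndrg2, named for repression downstream of N-myc, were the higher ones. Ndrg1 averaged 4.94 ± 0.89 FPKM in KI and 0.55 ± 0.34 FPKM in wild type, and Ndrg2 averaged 7.35 ± 2.87 FPKM in KI and 0.91 ± 0.86 FPKM in wild type (SD, n = 3 each). Of 9 cell competition and apoptosis genes 2 passed, again against 32.4% of all genes. Bbc3, which encodes the pro-apoptotic protein PUMA, was higher (log2 change 0.99) and Bcl2l11, which encodes BIM, was lower (log2 change -0.69). Each lost its call in 5 of 11 alternatives. Of 8 measured relatives and locus neighbours of the family 1 passed as higher and 1 as lower, against 32.4% of all genes in either direction. Near the family loci, Ddx1, the helicase gene beside Mycn, was at 12.6 ± 0.53 FPKM in KI and 8.27 ± 1.24 FPKM in wild type (SD, n = 3 each, log2 change 0.56). The call of Ddx1 was lost in 7 of 11 alternatives. Cap1, an actin regulator near Mycl, had a log2 change of -0.78. Trit1, the tRNA modification gene beside Mycl, had a log2 change of 0.53 and missed the threshold (limma adjusted p = 0.0979).

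**Figure D2:**
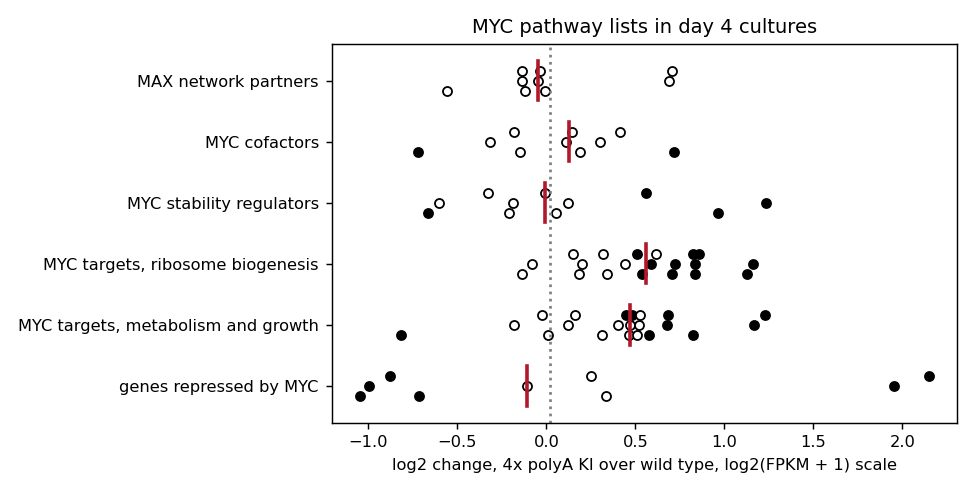
Log2 change of each measured gene in 6 MYC pathway lists, 4x polyA KI over wild-type cultures, 3 against 3; filled points passed an adjusted p of 0.05, red bars are list medians and the dotted line is the median of all genes. The ribosome biogenesis and metabolism lists lie mostly to the right of the dotted line, and the repressed list spreads to both sides.

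The E-box stands in the 250 bases before the start of 8 of the 18 metabolism and growth genes that have a promoter in the RefSeq table (44.4%, against 6.86% of all genes). The genes of this list were picked as known MYC targets, so this share is a description and not a test. In the ribosome biogenesis list 0 of 16 genes with a promoter have the E-box. The E-box is not particular to the metabolism and growth list. In the MAX network list 4 of 10 have it, and in the repressed and the apoptosis lists 2 of 7 each. Of the cofactors 1 of 9 has it, of the stability regulators 1 of 10, and of the relatives and locus neighbours 0 of 8. The windows of 3 metabolism and growth genes that were higher in KI cultures are shown, with CACGTG in capitals and up to 30 bases on either side.
Ldha: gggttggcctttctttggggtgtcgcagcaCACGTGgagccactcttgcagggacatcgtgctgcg
Eif4e: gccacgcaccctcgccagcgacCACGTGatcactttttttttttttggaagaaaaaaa
Phb: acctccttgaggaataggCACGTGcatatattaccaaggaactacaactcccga
In GRCm38.p6 these are chr7:46845629-46845694, chr3:138527018-138527075 and chr11:95666707-95666760, each on the plus strand, with the E-box 145, 228 and 232 bases before an annotated start. Ldha and Eif4e each have another E-box in the same 250 bases, 48 and 64 bases before the start. The other 5 metabolism and growth genes with an E-box, Cdk4, Eif4a1, Hspd1, Impdh2 and Nme1, did not pass the test in cultures. Phb, a mitochondrial scaffold protein, averaged 65.4 ± 4.07 FPKM in KI and 46.6 ± 4.58 FPKM in wild type (SD, n = 3 each), a log2 change of 0.48. The calls of Eif4e and Phb were lost in 7 and 4 of 11 alternative settings, and that of Ldha in 0.

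Mycl was the family member whose values separated the Evx1as-/- from the Evx1as+/- sections within each region. In streak sections of layers 1, 5, 7, 9 and 11 it stood at 6.14, 4.08, 7.70, 9.01 and 10.8 FPKM in Evx1as-/- embryos, against 1.96, 0.947, 3.01, 2.39 and 1.12 FPKM in the same layers of Evx1as+/- embryos. An Evx1as+/- section of layer 3, which has no Evx1as-/- partner, had 1.21 FPKM. In mesoderm sections of layers 7, 9 and 11 it stood at 4.04, 4.30 and 6.15 FPKM in Evx1as-/- embryos, against 0.978, 0.276 and 0.300 FPKM in Evx1as+/- embryos. Evx1as-/- mesoderm of layers 3 and 5, without partners, had 1.73 and 2.26 FPKM. Within each region every Evx1as-/- section lay above every Evx1as+/- section. That separation as higher held for 0.745% of all genes in streak and 8.6% in mesoderm.

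In the fit of both regions together, with region and layer as terms, Mycl had a log2 change of 1.63 (SE 0.22, 95% interval 1.18 to 2.08, fold 3.09, limma adjusted p = 0.00197). It had the smallest p of the 9527 genes tested, and was higher in 8 of 8 layer-matched pairs, as 3.2% of all genes were. In that fit 1.25% of genes passed the threshold, 1.13% as higher. The median change of all genes was 0.24 on the log2 scale, and after scaling that centres the genes Mycl kept a log2 change of 1.42 (limma adjusted p = 0.00182). The call held in 27 of 27 alternative settings. In streak alone the log2 change was 1.59 (limma adjusted p = 0.160) and in mesoderm alone 1.81 (limma adjusted p = 0.0886), neither past the threshold, which 0.0201% of genes passed in streak and 0.196% in mesoderm. The 2 Evx1as+/- mesoderm values of layers 9 and 11 had authors' intervals that reached 0, so the size of the mesoderm difference is poorly fixed.

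Other markers differed between the same sections. The summed level of 8 epiblast markers was 169 to 357 FPKM in Evx1as-/- streak and 79.0 to 201 FPKM in Evx1as+/- streak, and 64.4 to 181 FPKM in Evx1as-/- mesoderm and 18.6 to 74.3 FPKM in Evx1as+/- mesoderm. Visceral endoderm markers summed to 560 FPKM in the Evx1as-/- streak section of layer 11 and 361 FPKM in the Evx1as-/- mesoderm section of layer 9, against at most 43.5 FPKM in the other Evx1as-/- sections and 22.1 FPKM in Evx1as+/- sections. Without these 2 sections the log2 change of Mycl was 1.57 (limma adjusted p = 0.0127). Of 8 primitive streak markers, 4 passed as higher and 1 as lower in the genotype fit, and their summed level in mesoderm, given above, did not overlap between the genotypes. Mitochondrial genes took 2.03 to 3.21% of summed FPKM in Evx1as-/- libraries and 3.38 to 5.53% in Evx1as+/- libraries. The transcript listed as Yam1 took 4.89 to 22.2% in Evx1as-/- libraries and 1.07 to 38.3% in Evx1as+/- libraries. After scaling to a fixed sum without Yam1 and mitochondrial genes the log2 change of Mycl was 2.00 (limma adjusted p = 0.00297). The part of the epiblast and streak marker differences in the Mycl level was not tested. In captured pieces fewer cells of a type and less RNA per cell cannot be told apart.

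**Figure D3:**
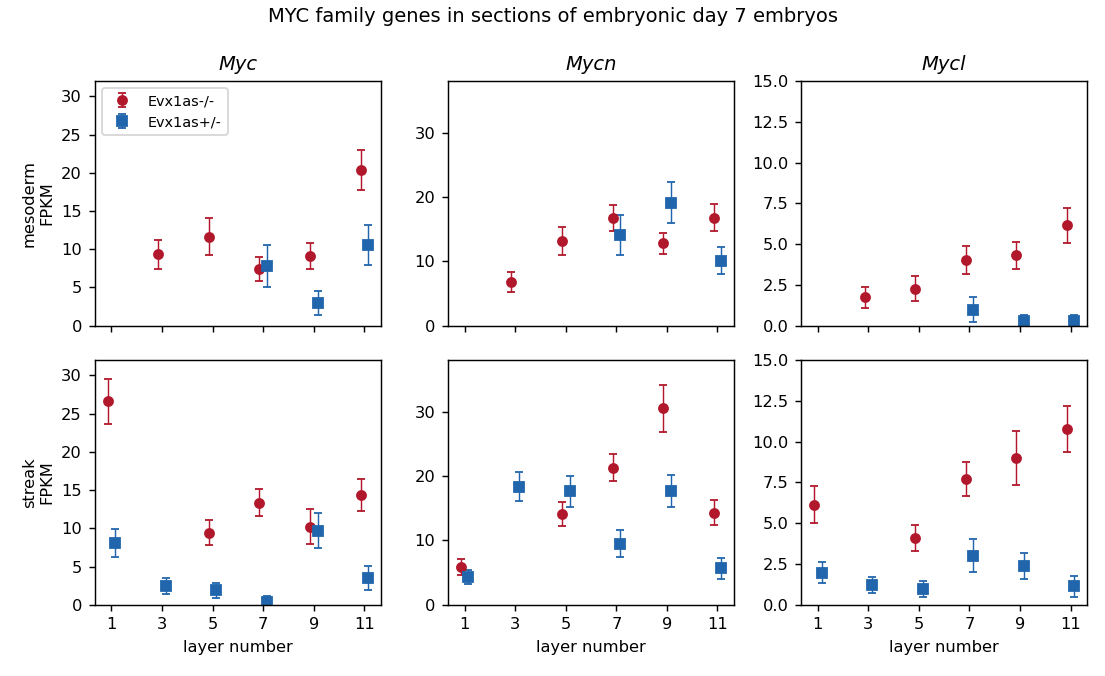
FPKM of Myc, Mycn and Mycl by layer number in mesoderm (top) and streak (bottom) sections; red circles are Evx1as-/- sections, blue squares Evx1as+/- sections, and bars the authors' interval for each value. Red points lie above blue points at each shared layer for Mycl, at 7 of 8 for Myc and at 6 of 8 for Mycn.

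Myc was higher in most Evx1as-/- sections, with less even spacing. In streak sections of layers 1, 5, 7, 9 and 11 it stood at 26.6, 9.43, 13.4, 10.2 and 14.4 FPKM in Evx1as-/- embryos, against 8.09, 1.90, 0.371, 9.68 and 3.49 FPKM in Evx1as+/- embryos. The Evx1as+/- layer 3 section had 2.43 FPKM. At layer 9 the authors' intervals of the genotypes overlapped, and at layer 7 the Evx1as+/- interval reached 0. In mesoderm sections of layers 7, 9 and 11 it stood at 7.46, 9.11 and 20.4 FPKM in Evx1as-/- embryos, against 7.83, 2.92 and 10.5 FPKM in Evx1as+/- embryos. Evx1as-/- mesoderm of layers 3 and 5 had 9.34 and 11.7 FPKM. The ranges of the genotypes overlapped, and Myc was higher in 7 of 8 layer-matched pairs. The fit of both regions gave a log2 change of 1.35 (SE 0.37, 95% interval 0.59 to 2.11, limma adjusted p = 0.0623), just short of the threshold. It passed in 6 of 27 alternatives, among them layer as a block (limma adjusted p = 0.0496) and the fits that added the 3 sections with conflicting labels (limma adjusted p = 0.0106 by title and 0.0220 by cell type label), and without Evx1as+/- streak layer 1, Evx1as+/- streak layer 9 or Evx1as-/- mesoderm layer 3 (limma adjusted p = 0.0381, 0.0302 and 0.0344). The 3 sections with conflicting labels are named with lanes 5 and 6, and the sections of the main fit with lane 2. The other 21 alternatives did not pass. After scaling that centres the genes the log2 change was 1.06 (limma adjusted p = 0.132), and the adjusted p was 0.164 after scaling to a fixed sum, 0.200 without a filter on low values, 0.175 without the 2 sections high in visceral endoderm markers and up to 0.124 with 1 section left out (limma).

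Mycn did not pass the test by genotype. In streak sections of layers 1, 5, 7, 9 and 11 it stood at 5.91, 14.1, 21.3, 30.5 and 14.3 FPKM in Evx1as-/- embryos, against 4.29, 17.6, 9.50, 17.7 and 5.66 FPKM in Evx1as+/- embryos. The Evx1as+/- layer 3 section had 18.4 FPKM. In mesoderm sections of layers 7, 9 and 11 it stood at 16.7, 12.8 and 16.8 FPKM in Evx1as-/- embryos, against 14.0, 19.1 and 10.1 FPKM in Evx1as+/- embryos. Evx1as-/- mesoderm of layers 3 and 5 had 6.78 and 13.1 FPKM. The ranges overlapped widely in both regions, and 6 of 8 pairs were higher in Evx1as-/- embryos. The log2 change of 0.27 (95% interval -0.35 to 0.88, limma adjusted p = 0.638) was close to the median of all genes, 0.24, and was -0.014 after scaling that centres the genes.

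**Figure D4:**
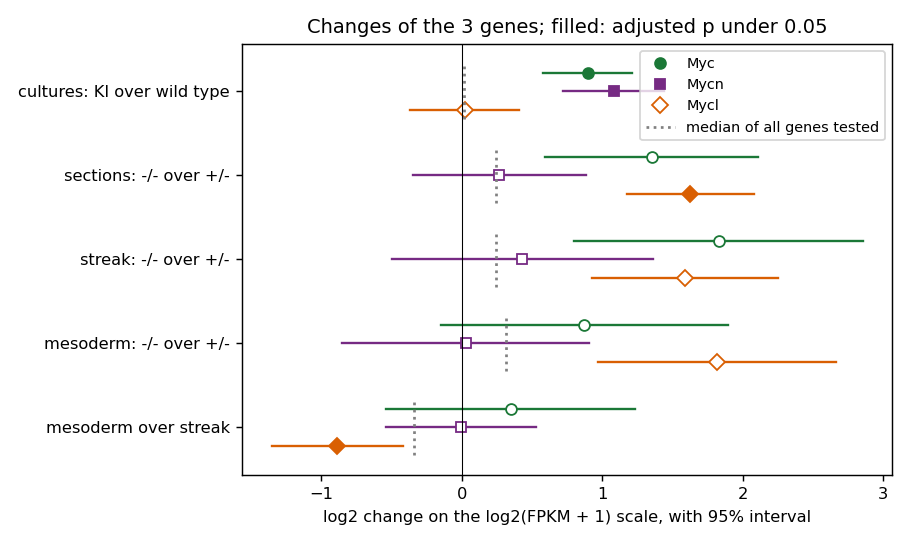
Log2 change of Myc (circles), Mycn (squares) and Mycl (diamonds) with its 95% interval in 5 comparisons; filled symbols passed an adjusted p of 0.05 and dotted lines are the median change of all genes tested. Myc and Mycn are filled for cultures, and Mycl for the genotype fit of both regions and for mesoderm over streak.

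In the sections the MYC pathway lists passed the test about as rarely as all genes, of which 1.25% did. In the genotype fit of both regions the ribosome biogenesis list had 1 of 19 measured genes higher and a median log2 change of 0.28, against 0.24 over all genes. That gene was Nop16, a nucleolar assembly factor, at 30.4 ± 7.90 FPKM in 10 Evx1as-/- sections and 16.1 ± 7.25 FPKM in 9 Evx1as+/- sections (SD), a log2 change of 1.06 (limma adjusted p = 0.0358). Its call was lost in 14 of 27 alternatives. The metabolism and growth list had 0 of 20 genes past the threshold in limma, 5 with an unadjusted p under 0.05, and a median log2 change of 0.31. Among the repressed genes 0 of 7 passed in limma and 3 had an unadjusted p under 0.05, with a median log2 change of 0.07. The MAX network, cofactor, stability and competition lists had 0 of 5, 0 of 10, 0 of 11 and 0 of 8 genes past the threshold in limma, and 0, 0, 1 and 1 at an unadjusted p under 0.05. The 1.25% is a share at adjusted p only. No share of all genes was set beside the unadjusted counts, so no excess can be read from them. Max averaged 6.37 ± 4.97 FPKM in the 10 Evx1as-/- sections and 4.50 ± 2.80 FPKM in the 9 Evx1as+/- sections (SD), a log2 change of 0.53 (limma adjusted p = 0.459). Trit1, beside Mycl, averaged 2.03 ± 1.23 FPKM in Evx1as-/- and 1.18 ± 1.11 FPKM in Evx1as+/- sections (SD), a log2 change of 0.55 (limma adjusted p = 0.307).

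Between regions, Mycl was lower in mesoderm than in streak of the same genotype and layer. Of 7 such pairs, Mycl was lower in 7, as 11.9% of all genes were. The Evx1as-/- pairs of layers 5, 7, 9 and 11 were 2.26, 4.04, 4.30 and 6.15 FPKM in mesoderm and 4.08, 7.70, 9.01 and 10.8 FPKM in streak. The Evx1as+/- pairs of layers 7, 9 and 11 were 0.978, 0.276 and 0.300 FPKM in mesoderm and 3.01, 2.39 and 1.12 FPKM in streak. The log2 change was -0.89 (SE 0.21, 95% interval -1.35 to -0.42, limma adjusted p = 0.0302), in a fit where 8.62% of genes passed the threshold, 8.04% as lower, and the median of all genes was -0.34. Scaling that centres the genes reduced it to -0.57 (limma adjusted p = 0.242), and the call was lost in 13 of 20 alternatives. Among these were the fits that left out a section, and with it its pair, of Evx1as-/- layers 7, 9 or 11 or of Evx1as+/- layers 7 or 9 (limma adjusted p of 0.0609 to 0.0907, log2 changes of -0.91 to -0.80). Myc and Mycn were each higher in mesoderm in 4 of 7 pairs. Their log2 changes were 0.35 (95% interval -0.54 to 1.24, limma adjusted p = 0.602) and -0.01 (95% interval -0.54 to 0.53, limma adjusted p = 0.989). Among pathway genes Cdkn1a, the p21 inhibitor, had the most marked difference, 0.39 ± 0.42 FPKM in 7 mesoderm sections and 13.8 ± 9.71 FPKM in 7 streak sections (SD), a log2 change of -3.19 (limma adjusted p = 0.00105). Pim1, Ccnd2, Eif4e and Phb were also lower in mesoderm, with log2 changes of -1.22, -0.84, -0.91 and -0.91. They lost their calls in 16, 9, 16 and 15 of 20 alternatives. By list, 1 of 11 stability, 3 of 20 metabolism and growth and 1 of 5 repressed genes passed as lower, against 8.04% of all genes. The ribosome biogenesis, cofactor, MAX network, competition and neighbour lists had 0 of 20, 0 of 9, 0 of 4, 0 of 7 and 0 of 5. Whether the region difference itself differed by genotype was tested, and 0 of the 3 members passed in limma, 0 of them at an unadjusted p under 0.05, where 0.0109% of all genes passed after adjustment. The interaction on the log2 scale was -0.91 for Myc (limma adjusted p = 0.938), -0.81 for Mycn (limma adjusted p = 0.871) and 0.28 for Mycl (limma adjusted p = 0.972). The intervals were wide, -2.70 to 0.88 for Myc, -1.81 to 0.19 for Mycn and -0.67 to 1.24 for Mycl.

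Along the layers 0 of the 3 members had a slope past the threshold in limma, and 0.0105% of all genes did in streak and 0.0115% in mesoderm. In streak layers 3 to 11, with genotype as a term, the log2 change per layer number was 0.11 for Myc, -0.09 for Mycn and 0.09 for Mycl (limma adjusted p of 0.792, 0.792 and 0.789). In mesoderm it was 0.09, 0.08 and 0.12 (limma adjusted p of 1 for each). Unadjusted p-values of the 3 members lay between 0.119 and 0.314 over both regions. In Evx1as-/- mesoderm the 5 Mycl values of layers 3 to 11 were in ascending order, as were the 4 of layers 5 to 11 in Evx1as-/- streak, while those of Evx1as+/- mesoderm and streak were not. The Evx1as-/- streak order leaves out layer 1, which at 6.14 FPKM lay above the 4.08 FPKM of layer 5. These orders were seen in the values, were not tested and were not counted over all genes. At layer 1, the end section of the streak, Mycn had its lowest streak value in both genotypes. It was at 5.91 FPKM in Evx1as-/- and 4.29 FPKM in Evx1as+/- embryos. In layers 3 to 11 the ranges of Mycn were 14.1 to 30.5 FPKM and 5.66 to 18.4 FPKM. The authors' interval of the Evx1as+/- value, 3.21 to 5.37 FPKM, overlapped that of layer 11, 4.05 to 7.28 FPKM. Mycl at layer 1, 6.14 and 1.96 FPKM, lay inside its ranges in layers 3 to 11, 4.08 to 10.8 and 0.947 to 3.01 FPKM. Myc at layer 1 was 26.6 FPKM in the Evx1as-/- section, above the 9.43 to 14.4 FPKM of its other layers, and 8.09 FPKM in the Evx1as+/- section, inside the range of 0.371 to 9.68 FPKM. With 1 section per genotype, layer 1 was not tested. Adding it turned the slopes of Myc and Mycn to -0.048 and 0.076.

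In most sections Mycn stood first, unlike in the cultures. Sections and cultures differ in protocol and in gene annotation, so the order of genes is not strictly comparable between them. The culture order of Myc, Mycn and Mycl was kept in 3 of 10 Evx1as-/- and 2 of 9 Evx1as+/- sections. Mycn was above Myc in 6 of 10 Evx1as-/- sections and in 7 of 9 Evx1as+/- sections. Mycl was the lowest of the 3 in 9 of 10 Evx1as-/- and 8 of 9 Evx1as+/- sections. Over streak and mesoderm, Evx1as-/- sections had medians of 10.9 FPKM for Myc, 14.2 FPKM for Mycn and 5.22 FPKM for Mycl. Evx1as+/- sections had medians of 3.49, 14.0 and 1.12 FPKM for Myc, Mycn and Mycl. The ranges of Myc and Mycn overlapped in each genotype, so their order is not settled section by section. In Evx1as-/- sections the range of Mycl, 1.73 to 10.8 FPKM, overlapped those of both others. The summed family level was 17.9 to 49.8 FPKM (median 33.4) in Evx1as-/- and 10.3 to 29.8 FPKM (median 20.9) in Evx1as+/- sections.

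The log2 ratio of Mycn to Myc, computed with 0.1 FPKM added to each, followed from these levels. In streak it averaged 0.13 in Evx1as-/- and 1.84 in Evx1as+/- embryos, a difference of -1.70 (exact permutation test, two-sided, p = 0.126). In mesoderm it averaged 0.21 in Evx1as-/- and 1.15 in Evx1as+/- embryos, a difference of -0.93 (exact permutation test, two-sided, p = 0.286). Over the 8 layer-matched genotype pairs it was lower in Evx1as-/- embryos in 6, by a mean difference of -1.20 (exact sign-flip permutation test, p = 0.0781). Over the 7 region pairs it was lower in mesoderm in 5, by a mean of -0.53 (exact sign-flip permutation test, p = 0.484). None of the 5 ratio comparisons passed after Benjamini-Hochberg adjustment, where the lowest value was 0.314 (exact permutation tests). Without the Evx1as+/- streak section of layer 1 the streak difference was -2.25 (exact permutation test, p = 0.0476). Without layer 9 of the streak the mean over pairs was -1.47 (exact permutation test, p = 0.0469). Both p-values are unadjusted, and they stand apart from most alternatives. For the streak 12 of 13 alternatives did not pass, and for the genotype pairs 19 of 21 did not. The 21 are not all distinct. Leaving out either section of a pair removes the same pair, so the 2 that passed are both the layer 9 streak pair. Leaving out a section without a partner changes nothing. The highest ratio in these sections, 4.35 in Evx1as+/- streak layer 7, rests on a Myc value of 0.371 FPKM whose authors' interval reached 0.

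**Figure D5:**
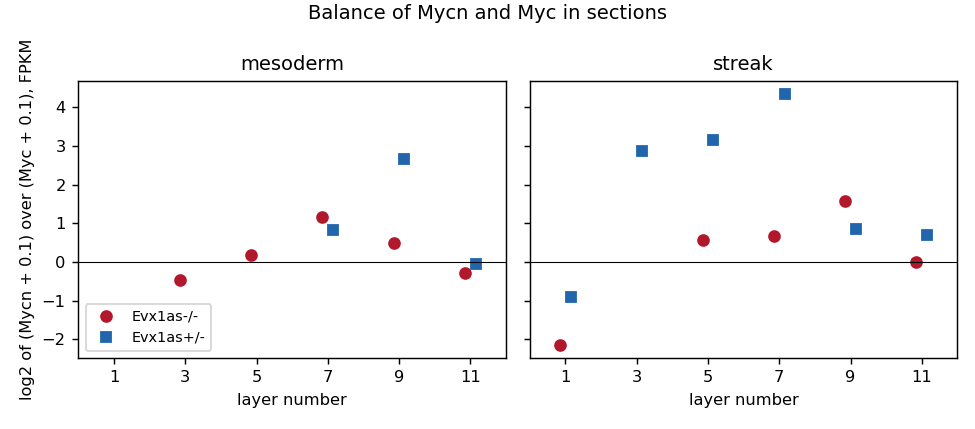
Log2 ratio of Mycn to Myc by layer number in mesoderm (left) and streak (right) sections; red circles are Evx1as-/- and blue squares Evx1as+/- sections, and the line marks equal levels. The highest ratios are those of Evx1as+/- streak sections of layers 3 to 7, and layer 1 lies below the line in both genotypes.

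The single pieces of anterior epiblast allow no test. Mycn was at 24.1 FPKM in the Evx1as-/- piece and 19.6 FPKM in the Evx1as+/- piece, the first of the family in both. Myc was at 6.94 FPKM in the Evx1as-/- piece and was listed at 0 in the Evx1as+/- piece. Mycl was at 3.90 FPKM in the Evx1as-/- piece and 3.23 FPKM in the Evx1as+/- piece, whose authors' intervals, 3.11 to 4.70 and 2.06 to 4.40 FPKM, overlap.

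Likeness was taken over 21 libraries, the 19 streak and mesoderm sections of agreeing region labels and the anterior epiblast piece of each genotype. Pearson's r of log2(FPKM + 1) between members was -0.12 for Myc and Mycn, 0.41 for Myc and Mycl, and 0.25 for Mycn and Mycl. The Evx1as+/- anterior piece, with Myc listed at 0 and Mycn at 19.6 FPKM, is among these points. These points share genotype, region and library quality, so r is a description. Among 2696 genes averaging 5 FPKM or more, those most like Myc were Pbk (r = 0.79), Spryd4, Hacd1, Aimp1 and Cd3eap, the last at r = 0.70. Those most like Mycn were Slc16a3 (r = 0.82), Eif4ebp1, Gnl3, Dctd and Mphosph8, the last at r = 0.78. Those most like Mycl, among 2697 genes, were Tpi1 (r = 0.83), G3bp1, Cdv3, Golt1b and Lyar, the last at r = 0.77. The median r over all genes compared was 0.18 for Myc, 0.16 for Mycn and 0.37 for Mycl, so a typical gene was more like Mycl than like the other two.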

How the data were processed

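Tables of 30 of the 34 samples were analysed, 6 of cultures and 24 of sections. The 4 posterior pieces were not analysed here. The authors deposited FPKM per gene, each with a lower and an upper bound, under Cufflinks-style column names, per the file headers. The submitters' processing notes name CASAVA, TopHat2 2.0.11 and mm10; the tool that made the FPKM is not given in the sources used here, and culture positions do not match mm10. Libraries were stranded, per the labels' protocols. Whole reads could not be recovered, so depth is unknown and no counting interval is given.

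Rows with the same identifier were summed, values under 1e-06 set to 0, and genes averaging 1 FPKM or more across the fitted libraries kept, which all 3 members passed. Changes come from limma 3.58.1 (R 4.3.3) on log2(FPKM + 1) with an intensity trend, adjusted by Benjamini-Hochberg over all genes tested, threshold 0.05. This scale understates changes of low genes. The genotype fit used 19 sections with region and layer as terms, and the region fit 7 pairs matched by genotype and layer. Ratios were tested by exact permutation in scipy 1.17.1. The fits were tested on simulated data. Members were named always, together with up to 4 past-threshold genes per list and comparison by size of change, the neighbours Ddx1 and Trit1, Max, and the 5 genes most alike each member. Members and lists were chosen with earlier results of these data known. Alternatives were another pseudocount, no filter, 2 scalings, blocks, other handling of the conflicting sections, and each library left out.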

Additional observations from a re-analysis of the deposited data

Results flagged for a closer look

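In Evx1as-/- streak sections the layer 1 value of Myc, 26.6 FPKM, lay far from the other 4, by a gap of 0.714 of the group's range against a critical value of 0.71. Of 12 such checks this was the 1 that passed, and chance passes about 1 in 20. The Evx1as-/- section titled as streak but labelled mesoderm of layer 3, used in no comparison, had 24.3 FPKM of Myc, where the highest Evx1as+/- section had 10.5 FPKM. Its Mycl value was 5.22 FPKM, where the highest Evx1as+/- section had 3.23 FPKM. The untested Evx1as-/- anterior epiblast piece had 24.1 FPKM of Mycn, where the highest Evx1as+/- section had 19.6 FPKM, and 3.90 FPKM of Mycl, where that section had 3.23 FPKM. The Evx1as+/- maxima of Mycn and Mycl are those of the Evx1as+/- anterior piece.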

How the results depend on the processing

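The culture calls of Myc and Mycn kept their direction and side of the threshold in 12 of 12 alternatives each, with lowest log2 changes of 0.76 and 0.95. Within the libraries of lane 3 named in the table names (2 KI, 1 wild type, no test) they were 1.01 and 1.13. The near-zero culture change of Mycl was -0.12 after scaling to a fixed sum and -0.081 to 0.16 with 1 culture left out. Replicate numbers of the cultures did not pair them: deviations of same-numbered cultures correlated at -0.12, -0.05 and -0.05, and not every culture was most like its own number. With the replicate block Myc and Mycn kept their calls (limma adjusted p = 0.0108 and 0.00662), while higher genes of the metabolism list numbered 4 instead of 8. That list had 5 after sum scaling, and the ribosome list 7 of 11 without a filter. Max in cultures ranged from -0.19 to 0.14 with 1 culture left out.

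Of the section results, Mycl by genotype held in 27 of 27 alternatives (log2 change 1.42 to 2.34). Myc by genotype passed at 1.36 with layer as a block and at 1.53 and 1.44 with the conflicting sections added by title and by cell type label, and ranged from 1.14 to 1.53 with 1 section left out. Mycl in mesoderm passed with them added by title (1.60). Mycl between regions lost its call without a filter (-0.89), after median scaling (-0.57) and after sum scaling (-0.95), and was -0.93 to -0.80 with 1 section left out. Mycn turned sign by genotype after median scaling (-0.014), in mesoderm after median and sum scaling (-0.32 and -0.31), between regions with a pseudocount of 0.1 (0.0019) or after median and sum scaling (0.42 and 0.34). With 1 section left out Mycn ranged from -0.23 to 0.24 in mesoderm, -0.13 to 0.19 between regions and -0.0084 to 0.12 per layer of mesoderm. Myc then ranged from -0.040 to 0.65 between regions and from -2.06 to 0.0022 in the interaction. Including layer 1 turned the streak slopes to -0.048 for Myc and 0.076 for Mycn. The Mycn to Myc ratio kept its sign throughout, at -2.25 to -1.13 in streak and -1.47 to -0.84 over genotype pairs with 1 section left out. The causes were not tested.

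Counts of all genes past the threshold moved more. The culture fit called 4256, against 2693 to 3976 with 1 culture left out. The genotype fit called 119, against 43 to 577 with 1 section left out, 19 without a filter, 818 and 835 with the conflicting sections added by title and label, and 25 without the sections high in visceral endoderm markers, an alternative chosen after seeing the data. The region fit called 788, against 53 to 729 with 1 section left out, 37 without a filter, 63 and 59 after the scalings, and 2214 and 1723 with more sections. Streak alone called 2, against 0 to 9, and mesoderm alone 17, against 0 to 227. Depth is unknown, and the authors' intervals of Mycl reach 0 in 2 of 3 Evx1as+/- mesoderm sections.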

Other observations

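The 3 sections with conflicting region labels gave further values. The Evx1as-/- section had 16.1 FPKM of Mycn. The Evx1as+/- sections titled mesoderm of layers 3 and 7, whose other labels say streak, had 4.50 and 1.85 FPKM of Myc, 9.69 and 12.7 FPKM of Mycn, and 0.728 and 0.270 FPKM of Mycl. Their summed level of 8 primitive streak markers was 27.4 and 16.2 FPKM. Evx1as+/- sections of agreeing labels had 13.7 to 42.0 FPKM in mesoderm and 276 to 470 FPKM in streak. The conflicting Evx1as-/- section had 374 FPKM, against 245 to 455 FPKM in Evx1as-/- streak and 68.5 to 87.9 FPKM in Evx1as-/- mesoderm. By this sum each lay in the range of the region in its title.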
